A study of Homo sapiens with 4 samples.

Results

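The genes described here encode the nuclear subunits of the mitochondrial respiratory chain and of ATP synthase. They were chosen by name: protein-coding genes without a hyphen in the symbol whose symbol starts with NDUFA, NDUFB, NDUFC, NDUFS or NDUFV and a digit, with UQCR, COX4I, COX5, COX6, COX7, COX8, ATP5F, ATP5M or ATP5P, or equals SDHA, SDHB, SDHC, SDHD or CYC1. Of the 61498 genes counted (in 61544 rows), 87 met this rule. By their names, 38 were counted with complex I, 4 with complex II, 10 with complex III, 17 with complex IV and 18 with complex V. The study grew HT29 and HCT116, both human colorectal cancer cell lines, and sequenced RNA from each as 1 control library and 1 library of cells treated with lipopolysaccharide (LPS), a bacterial cell wall component, at 1 ug/mL for 24 h. The lines were compared for their response because they differ in the baseline level of the glucocorticoid receptor. All 4 cultures were grown in the same kind of medium with serum, and the labels name no genetic change. A cell line is a model of 1 tumour's epithelial cells, without the immune cells and stroma of a colon. With 1 library per condition there was no replicate, so no test was possible within a line.

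Oxidative phosphorylation is carried out by large protein complexes of the inner mitochondrial membrane. Complex I takes electrons from NADH and complex II from succinate, complex III passes them from ubiquinol to cytochrome c, and complex IV hands them to oxygen. Complexes I, III and IV pump protons, and complex V, the ATP synthase, lets protons flow back to make ATP. Complex II is made from nuclear genes alone, whereas the other complexes combine nuclear subunits with core subunits encoded by the mitochondrial genome. The nuclear genes lie on many chromosomes, and their promoters are known for sites of nuclear respiratory factor 1 (NRF1), of GA-binding protein (GABP, an ETS factor) and of YY1.

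To show these letters, the 250 bases before the annotated gene start were read from RefSeq (GRCh38.p14) for the 68 of 87 genes with an entry. The genes with no entry included ATP5F1B, ATP5F1D, ATP5MC3, ATP5MF, ATP5MGL, COX4I2, COX6C, COX7A1, CYC1, NDUFA4, NDUFA4L2, NDUFB5, NDUFB9, NDUFC2, NDUFS5, SDHC, UQCRB and UQCRHL. The NRF1 core GCATGCGC, on either strand, was found in 12 of the 68 promoters (17.6%), against 2.81% of all 27305 promoters and 4.71% of the 10086 promoters of protein-coding genes expressed here. The ETS core CCGGAAG was found in 17 (25%), against 8.82% of all and 15.9% of the expressed. The YY1 core AAGATGGCG was found in 1 (1.47%), against 0.641% of all and 1.07% of the expressed. The 3 letter strings do not contain one another, and a match is a description of letters and not a shown site.

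For each complex, the promoter that held the most of these 3 motifs is shown, with the first in alphabetical order taken where genes tied. Each is printed 5′ to 3′ on the strand of the gene, in lower case with motif matches in capitals. They cover chrX:119871582-119871831 (plus strand) for NDUFA1, chr1:17054033-17054282 (minus) for SDHB, chr19:1605463-1605712 (minus) for UQCR11, chr2:97645812-97646061 (plus) for COX5B and chr21:25735055-25735304 (minus) for ATP5PF.
NDUFA1: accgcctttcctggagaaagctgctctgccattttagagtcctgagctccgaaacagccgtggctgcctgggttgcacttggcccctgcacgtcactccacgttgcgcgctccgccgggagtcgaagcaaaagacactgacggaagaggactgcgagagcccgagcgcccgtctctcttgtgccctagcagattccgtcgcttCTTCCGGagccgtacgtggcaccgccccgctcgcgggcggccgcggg
SDHB: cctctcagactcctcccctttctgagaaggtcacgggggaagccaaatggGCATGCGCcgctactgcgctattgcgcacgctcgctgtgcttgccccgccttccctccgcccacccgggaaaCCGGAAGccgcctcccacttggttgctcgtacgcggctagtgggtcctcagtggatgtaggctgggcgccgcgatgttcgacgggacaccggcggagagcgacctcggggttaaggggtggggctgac
UQCR11: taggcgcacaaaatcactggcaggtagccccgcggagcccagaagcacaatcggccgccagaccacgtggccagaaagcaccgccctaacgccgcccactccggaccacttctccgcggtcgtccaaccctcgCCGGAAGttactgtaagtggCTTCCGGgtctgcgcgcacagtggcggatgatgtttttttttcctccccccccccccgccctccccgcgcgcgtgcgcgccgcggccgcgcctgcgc
COX5B: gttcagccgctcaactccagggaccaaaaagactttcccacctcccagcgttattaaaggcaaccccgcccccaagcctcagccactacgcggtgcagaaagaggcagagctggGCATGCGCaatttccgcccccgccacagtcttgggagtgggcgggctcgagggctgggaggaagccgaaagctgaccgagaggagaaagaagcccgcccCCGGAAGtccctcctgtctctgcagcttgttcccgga
ATP5PF: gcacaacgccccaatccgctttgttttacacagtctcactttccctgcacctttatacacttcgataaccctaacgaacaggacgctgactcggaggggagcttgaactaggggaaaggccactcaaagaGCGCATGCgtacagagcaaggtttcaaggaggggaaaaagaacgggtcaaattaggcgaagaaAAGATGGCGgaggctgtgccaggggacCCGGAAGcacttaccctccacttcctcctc

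SDHB, the iron-sulfur subunit of complex II, and COX5B, a structural subunit of complex IV, each held 1 NRF1 and 1 ETS match. ATP5PF, the coupling factor 6 subunit of complex V, held a match to all 3 motifs, and its NRF1 match lay on the opposite strand. UQCR11, a small subunit of complex III, held 2 ETS matches that face each other, and NDUFA1, an accessory subunit of complex I, held 1 ETS match. The response to LPS was set beside these matches as a description. In HT29 the median log2 ratio of LPS to control was -0.09 in the 11 measured genes with an NRF1 match and -0.11 in the 50 without, and in HCT116 it was -0.02 in 11 and -0.03 in 51. For the ETS core, the medians were -0.06 in 17 genes with a match and -0.11 in 44 without in HT29, and -0.06 in 17 and -0.02 in 45 in HCT116.

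Total counts ran from 19105058 to 21268959 per library. Of 7 markers of colon epithelium, EPCAM, CDH1, KRT8, KRT18 and KRT19 had at least 1676 counts in all 4 libraries, whereas VIL1 (villin) had 2637 and 3004 counts in HT29 but 4 and 0 in HCT116, and CDX2 had 18 and 39 in HT29 but 474 and 572 in HCT116. Of 8 markers of other cell types, PTPRC, CD3E, CD68 and COL1A2 had from 0 to 7 counts, while COL1A1 had 2225 and 1999 in HCT116, and 81 and 59 in HT29. DES had 1 and 0 counts in HT29 but 103 and 61 in HCT116, VWF had from 4 to 39 and PECAM1 from 5 to 39. In what follows, 4 values in a row stand for HT29 before HCT116 and, within a line, for control before LPS.

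In HT29 the 87 genes together made up 0.739% of the control counts (95% Clopper-Pearson interval 0.735% to 0.743%) and 0.691% of those after LPS, and in HCT116 they made up 0.759% and 0.723%. Complex V held the largest share of these, with 0.253% and 0.237% in HT29 and 0.291% and 0.276% in HCT116. The 13 subunit genes of the mitochondrial genome took more than all nuclear ones, from 3.49% in the HT29 control to 6.58% in HCT116 with LPS. All intervals here cover counting error only, since each rests on the reads of 1 library per condition. They leave out variation between cultures, and the reads carried no molecular identifiers.

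Levels between genes were compared per length, as TPM (counts divided by transcript length and scaled to the same total in each library), with the length of 1 reference transcript per gene. For the 78 genes whose counts, scaled to library size as CPM, averaged 1 or more over the 4 libraries, the median level was 116 and 115 TPM in HT29 and 139 and 116 TPM in HCT116, control before LPS. Complex IV had the highest median level in every library (261, 247, 285 and 235 TPM), followed by complex V (171, 154, 195 and 168 TPM). On this scale complexes I (85.7, 92.7, 97.2 and 84.3 TPM), II (119, 112, 110 and 102 TPM) and III (102, 97.6, 91.2 and 84.4 TPM) lay lower and changed places between libraries. With the length of all exons joined, complex IV was again the highest in every library (167, 147, 165 and 150 TPM), but complex III came next (151, 137, 120 and 111 TPM), before complex V (116, 109, 96.8 and 93.4 TPM) and complex II (114, 105, 104 and 93.4 TPM), and complex I was the lowest (45.9, 46.4, 35.3 and 31.1 TPM). With 1 library per condition, the spread of these medians over samples is unknown. ATP5F1B, the catalytic beta subunit of ATP synthase, was at 953, 915, 1212 and 1128 TPM, from 14995, 15517, 20914 and 18765 counts. It was the highest of the nuclear subunits except in the HT29 control, where NDUFB9, an accessory subunit of complex I, was at 993 TPM. This exception rested on the reference transcript, since by the joined exon length ATP5F1B was the highest in all 4 libraries (1240, 1174, 1520 and 1377 TPM) and NDUFB9 was at 68.6 TPM in the HT29 control. COX4I1 was at 658, 603, 965 and 853 TPM by the reference transcript but at 173, 156, 244 and 210 TPM by the joined exons. CYC1, cytochrome c1, was at 603, 555, 831 and 730 TPM, and at 606, 550, 804 and 688 TPM by the joined exons. NDUFB9, ATP5F1B and CYC1 were named for their level after the values were seen.

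**Figure D1:**
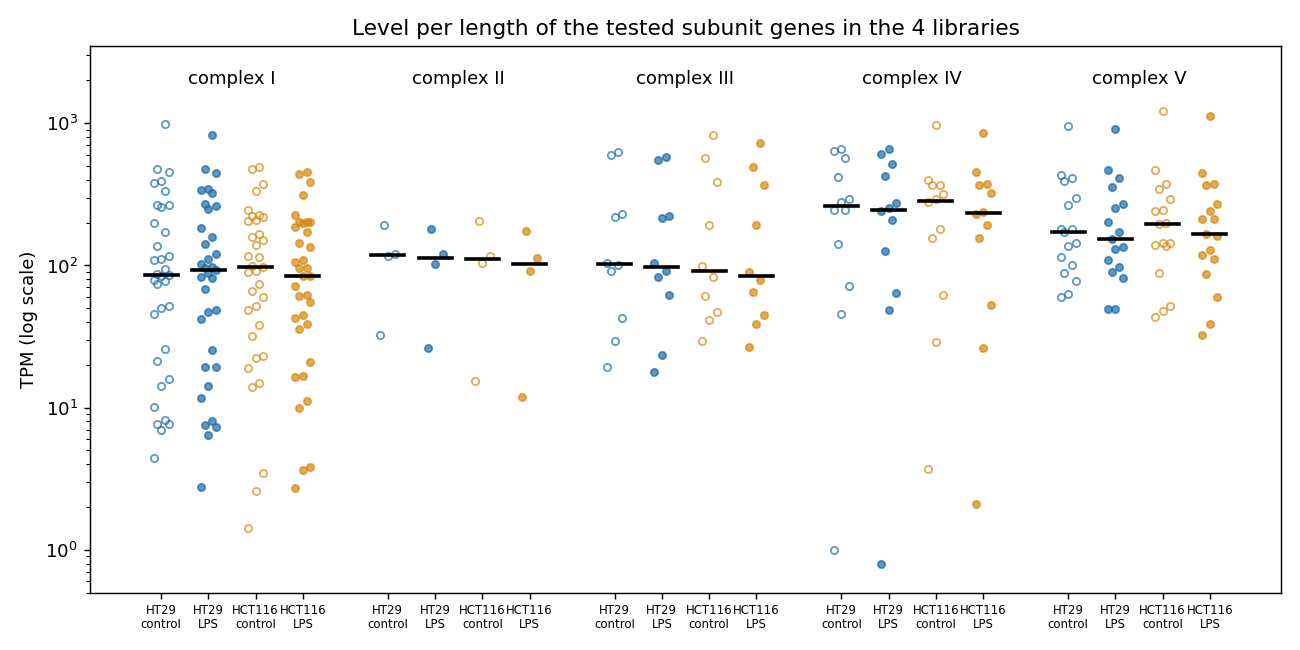
Level in TPM (log axis) of the 78 tested subunit genes by complex in the 4 libraries, with open points for control, filled points for LPS, blue for HT29, orange for HCT116 and black bars for medians. The bar of complex IV is the highest in every library, at 235 to 285 TPM, and complex I runs from 4.43 to 993 TPM in the HT29 control.

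Subunits of 1 complex are needed in fixed numbers, but their levels per length spread widely, and part of that spread moved with how the genes overlap others. In the annotation, 8 of the 87 genes share 50% or more of their exon bases with another gene. These are NDUFA7, NDUFA11, NDUFA13, NDUFB8, NDUFS7 and NDUFV2 of complex I, SDHA of complex II and ATP5PO of complex V. Their median level was 24.2 TPM in the HT29 control and 34.8 TPM in the HCT116 control, against 172 and 160 TPM for the 51 genes that share no exon base. NDUFV2, a core subunit of complex I that carries an iron-sulfur cluster, had only 34, 23, 12 and 22 counts, and 90.0% of its exon bases lie in a second annotated gene that itself had 0 counts in all 4 libraries. NDUFA7 had 7, 3, 23 and 23 counts with 77.9% shared, and NDUFA13 had 36, 59, 162 and 210 counts with 83.9% shared. SDHA, the flavoprotein subunit of complex II, was at 32.5, 26.3, 15.3 and 11.8 TPM with 69.4% shared, below SDHB (194, 181, 204 and 175 TPM), SDHC (116, 103, 116 and 113 TPM) and SDHD (121, 121, 104 and 91.6 TPM). How reads over shared exons were counted was not stated in the sources used here, and its part in these levels was not tested. Over the 78 genes, the level in the HT29 control and the percent of shared bases had Pearson's r = -0.23 and Spearman's rho = -0.42, as a description across genes of 1 library.

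Genes with near-identical copies on alternate contigs also had few counts. NDUFA3 had 0, 3, 1 and 0 counts and NDUFA6 had 3, 4, 9 and 1 counts, although both encode standing accessory subunits of complex I. NDUFA3 has 9 copies and NDUFA6 has 3 on alternate contigs of the reference, with at least 98% identity over at least 50% of the transcript. COX6A1, SDHC and UQCRHL have a copy on a primary chromosome. In the HT29 control COX6A1 was at 244 TPM, SDHC at 116 TPM and UQCRHL at 42.9 TPM, beside a median of 116 TPM over the 78 genes. Levels of these 5 genes are therefore uncertain, and so are those of the 8 genes above.

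Several subunits exist as alternative isoforms, and both lines used the widespread ones. COX4I2, COX6A2, COX7B2 and COX8C, known from lung, heart and muscle, or testis, had 0 counts in all 4 libraries, which allows up to 3 counts per library, or from 0.133 to 0.166 CPM. COX8C has a copy on an alternate contig. COX7A1, the muscle form, had 0, 3, 2 and 4 counts, against 1222, 1227, 1440 and 1416 for COX7A2 and 1463, 1402, 1383 and 1143 for COX7A2L, known from the joining of complexes into supercomplexes. COX6B2, a testis form, had 14, 12, 57 and 31 counts, against 2483, 2426, 1772 and 1691 for COX6B1. COX4I1 (4490, 4440, 7222 and 6157 counts), COX6A1 (1173, 1083, 955 and 985), COX6C (943, 913, 2136 and 1628), COX7B (1000, 1137, 690 and 604) and COX8A (2811, 3123, 1775 and 2113) were well counted in both lines. NDUFA4, counted here with complex I by its name although it works in complex IV, had 1353, 1626, 1205 and 1182 counts, and its hypoxia-related relative NDUFA4L2 had 69, 66, 24 and 34. In complex V, the 3 genes for subunit c, which encode the same mature protein, were all expressed, with ATP5MC2 at 431, 414, 375 and 371 TPM, ATP5MC1 at 268, 253, 347 and 365 TPM and ATP5MC3 at 115, 110, 137 and 118 TPM. ATP5MGL had 1, 0, 0 and 1 counts, against 632, 535, 525 and 411 for ATP5MG. UQCRHL, an intronless copy of UQCRH, was at 106, 164, 112 and 101 counts against 3021, 2980, 2980 and 2485 for UQCRH.

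The first comparison asked how LPS changed the subunit genes in HT29. In the LPS library, 59 of the 77 genes that averaged 1 CPM or more in this line were below the control (76.6%, against 51.8% of all 13201 such genes). The differences were small, with a median log2 ratio of -0.12 against -0.01 over all genes. The 95% counting interval of the ratio lay below 0 for 39 of the 77 genes and above 0 for 6, while it did so for 18.5% and 15.9% of all genes. Of the 66 genes with at least 20 CPM, 36 had an interval below 0 and 4 above, against 24.3% and 18.3% of all genes at that level. The median was negative in each complex, at -0.11 for complex I (35 genes), -0.17 for complex II (4), -0.15 for complex III (10), -0.15 for complex IV (11) and -0.09 for complex V (17). No gene was above 0.58 on the log2 scale and 1 was below -0.58, against 3.50% and 2.70% of all genes.

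That 1 gene was NDUFV2, at 34 counts in the control and 23 with LPS, with a log2 ratio of -0.66 (95% interval -1.53 to 0.10) that includes 0. NDUFA13, which is also known as the cell death regulator GRIM-19, had the highest ratio of complex I, at 0.55 (-0.05 to 1.21), from 36 and 59 counts. In complex II, SDHA went from 783 to 684 counts in the larger LPS library, a log2 ratio of -0.33 (-0.48 to -0.18), and SDHD, a membrane anchor, had -0.03 (-0.14 to 0.07). In complex III, UQCR11 had -0.36 (-0.59 to -0.14) and UQCRHL 0.48 (0.13 to 0.86). In complex IV, COX6A1 had -0.25 (-0.37 to -0.13) and COX7B 0.05 (-0.08 to 0.17). In complex V, ATP5MG had -0.38 (-0.55 to -0.21), and ATP5MF had 0.16 (0.07 to 0.26), both being small subunits of the membrane part. The lower and the higher ends of each complex thus include genes with few counts, shared exons or a copy. This is so for NDUFV2, NDUFA13, SDHA, UQCRHL and COX6A1. UQCR11, ATP5MG and ATP5MF also share 18.09%, 24.35% and 37.25% of their exon bases with other genes.

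**Figure D2:**
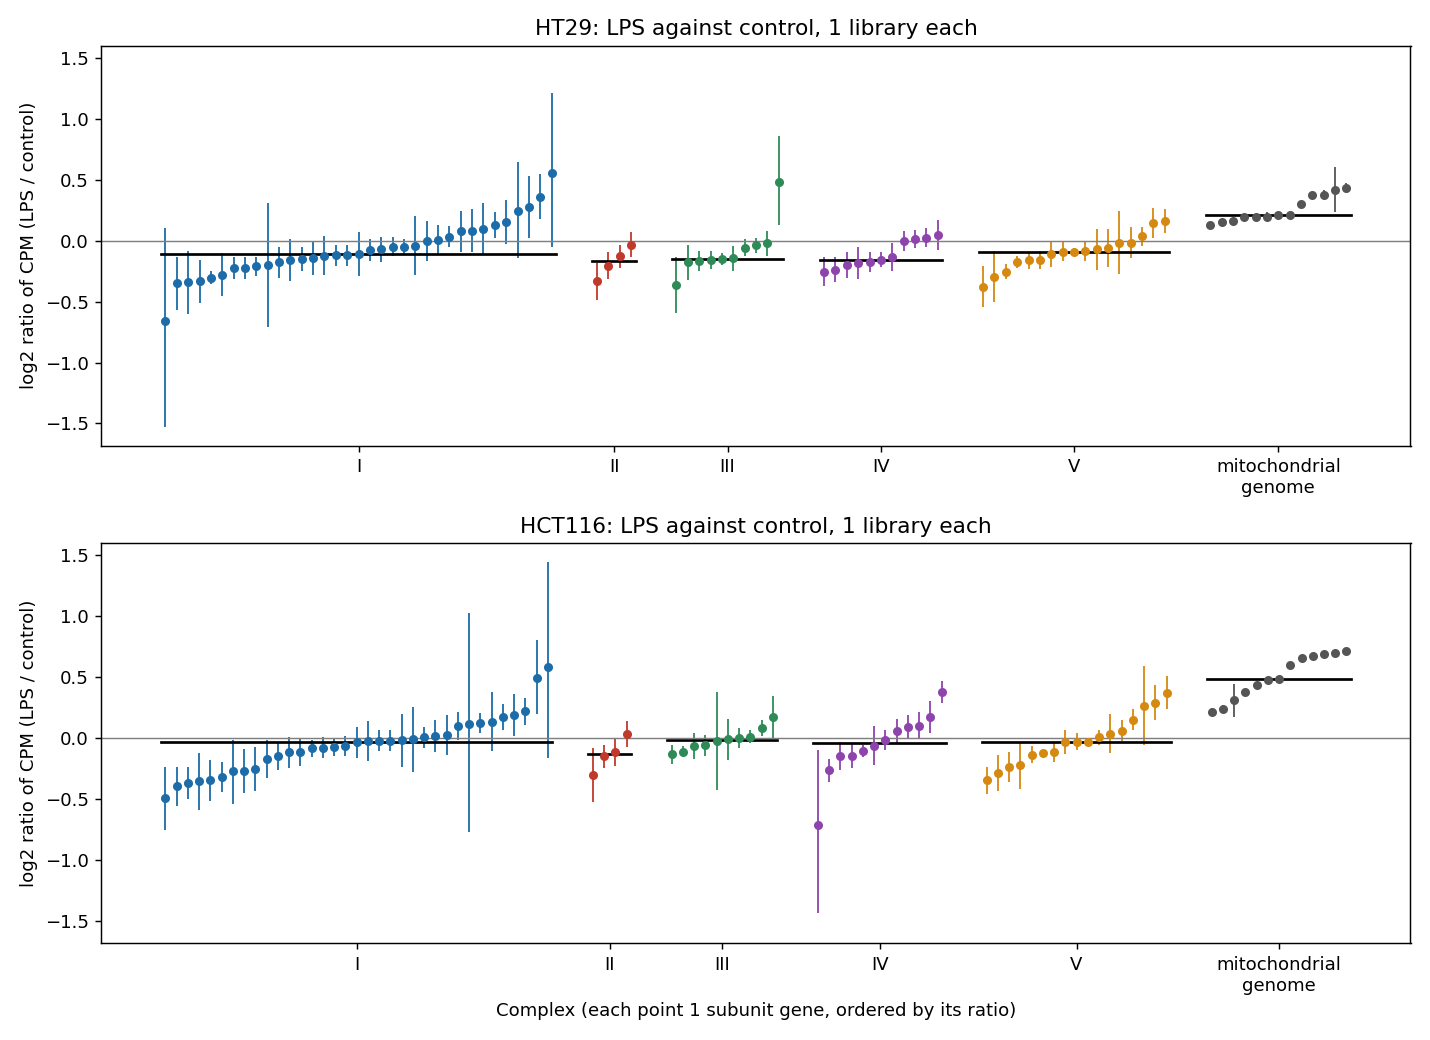
Log2 ratio of LPS to control (TMM-normalized CPM) for each measured nuclear subunit gene by complex, and for the 13 mitochondrial genome subunits, with 95% counting intervals and black bars for medians, HT29 above and HCT116 below. The medians of all 5 complexes are below 0 in both lines, from -0.17 to -0.09 in HT29 and from -0.13 to -0.02 in HCT116, and all 13 mitochondrial genes are above 0.

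In HCT116 the same comparison gave a smaller shift and wider spread in both directions. Of the 78 genes measured in this line, 49 were below the control (62.8%, against 50.5% of all 14337 genes), with a median log2 ratio of -0.03 against -0.003 over all genes. The counting interval lay below 0 for 29 genes and above 0 for 12, against 18.2% and 17.0% of all genes. Of the 65 genes with at least 20 CPM, 24 had an interval below 0 and 11 above, against 23.7% and 19.5%. The medians were -0.03 for complex I (35 genes), -0.13 for complex II (4), -0.02 for complex III (10), -0.04 for complex IV (12) and -0.03 for complex V (17). There was 1 gene above 0.58 and 1 below -0.58, against 3.56% and 2.34% of all genes. These were NDUFA4L2 at 0.59 (-0.17 to 1.45), from 24 and 34 counts, and COX6B2 at -0.71 (-1.43 to -0.09), from 57 and 31 counts.

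Among better counted genes of HCT116, NDUFC2 of complex I went from 315 to 205 counts, a log2 ratio of -0.49 (-0.75 to -0.23). SDHA was again the lowest of complex II, at -0.30 (-0.52 to -0.08) from 405 and 301 counts, and SDHC was the highest at 0.03 (-0.07 to 0.14). The hinge protein UQCRH was the lowest of complex III at -0.13 (-0.21 to -0.06), and UQCR10 the highest at 0.17 (0.003 to 0.35). COX8A, with 1775 and 2113 counts, was the highest of complex IV at 0.38 (0.29 to 0.47). In complex V, ATP5F1E, the epsilon subunit, had -0.34 (-0.46 to -0.23) from 1541 and 1110 counts, and ATP5MF had 0.37 (0.24 to 0.51) from 847 and 1005 counts. Several of these genes share exon bases with other genes: NDUFC2 22.28%, SDHA 69.44%, UQCR10 19.65%, COX8A 35.43%, ATP5F1E 32.69% and ATP5MF 37.25%.

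Across the 76 genes measured in both lines, the log2 ratios in HT29 and HCT116 showed little relation (Pearson's r = 0.10, Spearman's rho = 0.02, a description across genes whose ratios come from separate libraries). At 20 CPM or more in both lines, r was 0.01 and rho 0.04 over 62 genes, and r was 0.16 and rho 0.24 over all 6717 such genes. The intervals lay below 0 in both lines for 16 genes, above 0 in both for 1 and on opposite sides for 7, against 6.34%, 4.41% and 4.45% of the 12085 genes measured in both lines. No test of these counts was made, and 39 and 29 of the subunit genes had intervals below 0 in the single lines. The 16 were NDUFA5, NDUFB5, NDUFB7 and NDUFB9 of complex I, SDHA and SDHB, CYC1 and UQCRH of complex III, COX4I1, COX5B, COX6C and COX7A2L of complex IV, and ATP5F1A, ATP5F1C, ATP5MC3 and ATP5MG of complex V. The 1 gene above 0 in both was ATP5MF. These sets were formed after the values were seen.

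A shared test used the lines as blocks, with 1 residual degree of freedom, over 14516 genes. By the edgeR quasi-likelihood test, Benjamini-Hochberg adjusted, 0 of the 78 subunit genes were called, against 0.124% of all genes called higher and 0.0964% called lower. At an unadjusted p under 0.05, 2 subunit genes were higher and 13 lower, beside 513 and 588 of all genes. DESeq2 also called 0 subunit genes, and gave an adjusted p for 43 of them. Its unadjusted p was under 0.05 for 11, with 1 higher and 10 lower. Over all genes, DESeq2 called 84 of the 3822 with an adjusted p. Of all genes, 751 had an unadjusted p under 0.05, in near equal numbers higher and lower. The smallest p belonged to ATP5MF, with a log2 fold change of 0.26 ± 0.08 (SE) and an adjusted p of 0.31 by edgeR, although both lines were higher with LPS.

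The mitochondrial genome's 13 subunit genes differed from the nuclear ones in direction. All 13 were higher with LPS in both lines, with intervals above 0. In HT29 the 7 subunits of complex I had a median log2 ratio of 0.21, beside -0.11 for the nuclear subunits of that complex, and MT-CYB of complex III had 0.30 beside -0.15. The 3 of complex IV had 0.15 beside -0.15, and the 2 of complex V had 0.31 beside -0.09. In HCT116 these medians were 0.47, 0.70, 0.60 and 0.51, beside -0.03, -0.02, -0.04 and -0.03. The shared edgeR test called 3 of the 13, all higher, with adjusted p = 0.010 for MT-ND4L, 0.024 for MT-ND5 and 0.032 for MT-CYB. Leaving ribosomal protein, histone and mitochondrial genes out of the library sizes gave nuclear medians of -0.12 in HT29 and -0.04 in HCT116.

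Many subunit transcripts are short, and short transcripts as a class were lower with LPS in HT29. Among protein-coding genes with a transcript under 1 kb, the median log2 ratio in HT29 was -0.09 over 621 genes, beside -0.11 for the 45 subunit genes of that length. Among longer ones it was -0.01 over 10696 genes, beside -0.12 for 32 subunit genes, of which 19 had an interval below 0 and 1 above. In HCT116 the short class had a median of 0.01 over 636 genes, beside -0.01 for 45 subunit genes, and the longer class had -0.01 over 11688 genes, beside -0.08 for 33 subunit genes. The shorter subunit genes were thus close to the short class in both lines, and the longer ones lay lower than the longer class. Both classes include the subunit genes themselves. With smooth trends in length and GC content removed, the median of the subunit genes was -0.11 in HT29 and -0.07 in HCT116, beside -0.02 and -0.02 over all genes.

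The second comparison asked which subunit genes differ between the lines, with LPS as a block (HT29 minus HCT116, 1 residual degree of freedom). By edgeR's quasi-likelihood test, 37 of the 78 genes were higher in HT29 and 21 were lower, 74.4% in all. Over all 14516 genes, 38.0% were called higher and 38.6% lower, so the share called was close to that of any gene, and the split leaned towards HT29. The median log2 difference was 0.23 over the subunit genes and -0.02 over all genes. With trends in length and GC removed, it was 0.09 beside 0.20 over all genes, so the direction relative to all genes turned. By complex, the medians were 0.23 for complex I, 0.29 for complex II, 0.26 for complex III, 0.33 for complex IV and -0.04 for complex V. The calls higher and lower in HT29 were 16 and 8 of 35 in complex I, 2 and 0 of 4 in complex II, 5 and 4 of 10 in complex III, 7 and 3 of 12 in complex IV, and 7 and 6 of 17 in complex V. Complexes I, III, IV and V each held calls in both directions.

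The control pair and the LPS pair of libraries gave this difference separately. Of the 78 genes, 67 had the same sign in both pairs, 39 had intervals above 0 in both, 21 below 0 in both and 0 on opposite sides. Over all 14516 genes these shares were 92.1%, 38.2%, 38.8% and 0.765%. Across the genes, the differences of both pairs had r = 0.89 and rho = 0.88, beside 0.97 and 0.95 over all 14516 genes, as a description.

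**Figure D3:**
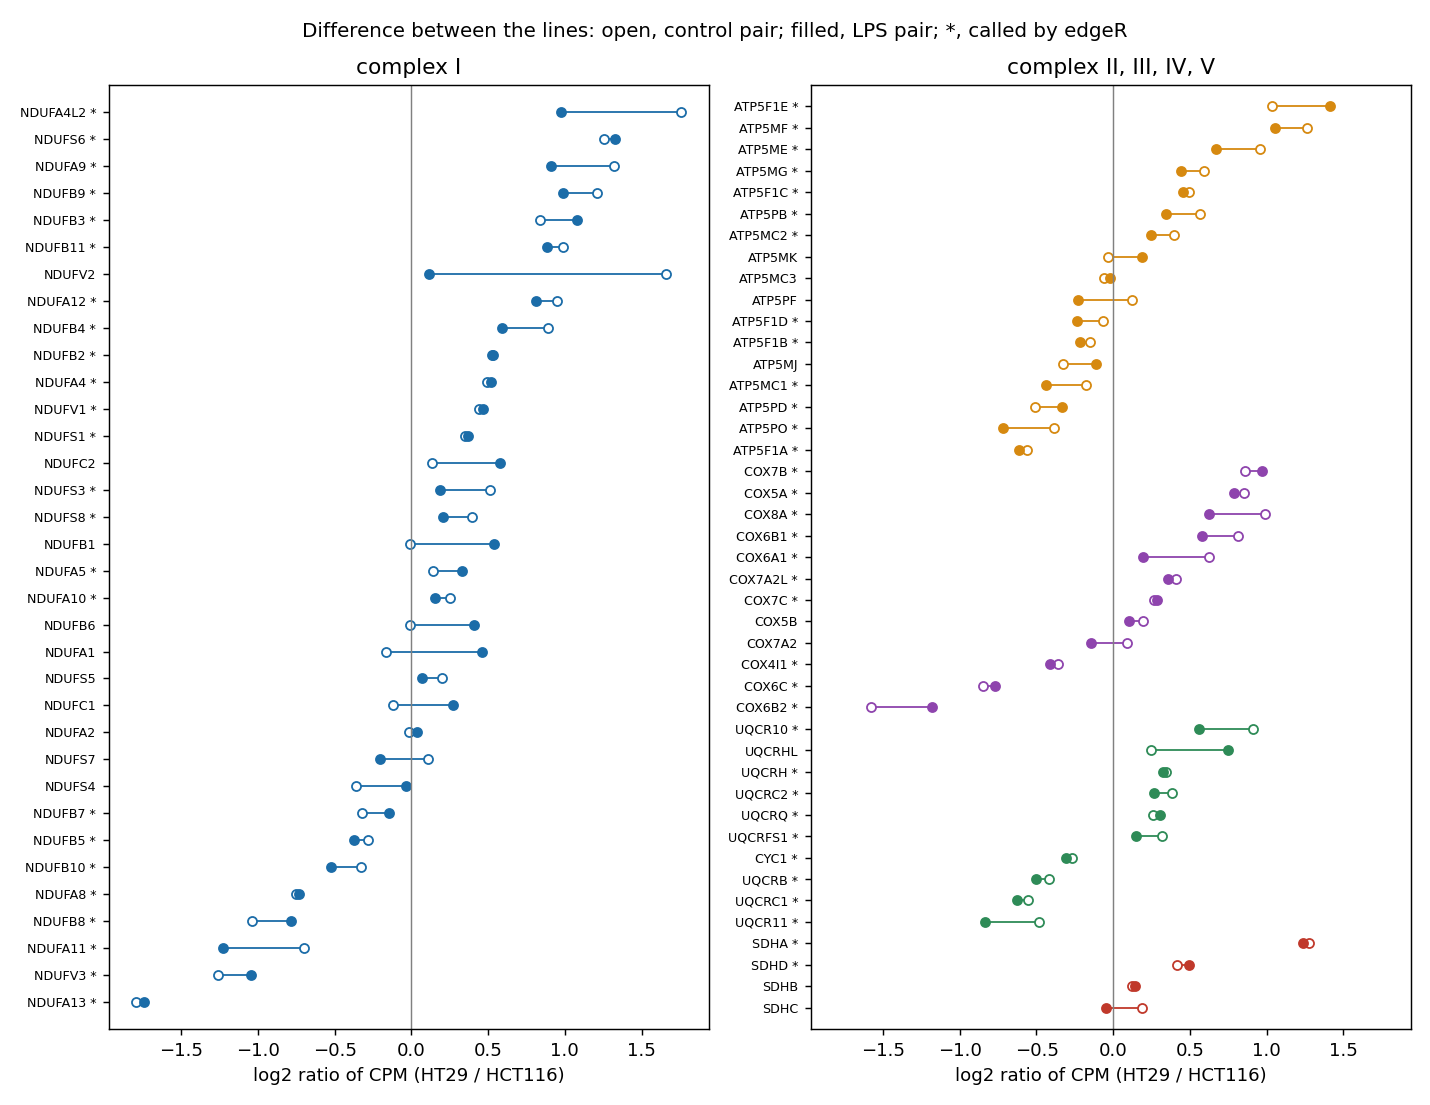
Log2 ratio of HT29 to HCT116 (TMM-normalized CPM) for 77 of the 78 tested subunit genes by complex, with open points for the control pair of libraries, filled points for the LPS pair and a star for genes called by edgeR. Most pairs lie close together and on 1 side of 0, from NDUFA13 near -1.8 to NDUFA4L2, whose open point is at 1.76.

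Among the genes counted with complex I, NDUFA4L2 had the largest difference towards HT29, from counts of 69, 66, 24 and 34. Its log2 fold change was 1.42 ± 0.40 (SE, adjusted p = 0.0031, edgeR). Like its relative NDUFA4, it was placed in complex I by its name alone. NDUFA13 had the largest in the other direction, at -1.80 ± 0.26 (adjusted p = 3.3e-06, edgeR), from 36 and 59 counts in HT29 against 162 and 210 in HCT116. The gene that shares 83.9% of its exon bases had 9 and 11 counts in HT29 against 88 and 80 in HCT116. A better counted gene, named after its values were seen, was NDUFS6, an accessory subunit of the matrix arm, with 2123 and 2390 counts in HT29 against 1113 and 994 in HCT116. Its log2 fold change was 1.29 ± 0.07 (adjusted p = 2.0e-12, edgeR). In complex II, SDHA was higher in HT29, with 783 and 684 counts against 405 and 301, at 1.26 ± 0.12 (adjusted p = 8.7e-09, edgeR), and SDHD at 0.45 ± 0.08 (adjusted p = 1.9e-05, edgeR). SDHB (0.13 ± 0.07) and SDHC (0.07 ± 0.08) did not pass, with adjusted p = 0.097 and 0.42 by edgeR.

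In complex III, UQCR10 was higher in HT29 at 0.74 ± 0.11 (827 and 805 counts against 550 and 568), and UQCR11 was lower at -0.66 ± 0.14 (344 and 294 against 604 and 549). In complex IV, COX7B was higher in HT29 at 0.92 ± 0.10 (1000 and 1137 counts against 690 and 604). The testis form COX6B2 was lower at -1.51 ± 0.49, with an adjusted p of 0.0093 by edgeR and 14 and 12 counts against 57 and 31. Among other genes of complex IV, COX4I1 (-0.39) and COX6C (-0.81) were lower in HT29. COX5A, COX6A1, COX6B1, COX7A2L and COX8A were higher, and COX7A2 (-0.03 ± 0.08) did not pass. In complex V, ATP5F1E was higher in HT29 at 1.22 ± 0.08 (2521 and 2842 counts against 1541 and 1110), and ATP5F1A, the alpha subunit, was lower at -0.59 ± 0.07 (7442 and 7257 against 13789 and 11600). The catalytic partner ATP5F1B was lower at -0.18 ± 0.07, with an adjusted p of 0.026 by edgeR, and did not pass without LPS as a block (adjusted p = 0.057).

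Subunits of 1 complex differed in opposite directions between the lines, and each gene was therefore set beside its neighbours in the genome. For each of the 78 genes, the median line difference of the other tested genes whose start lay within 5 Mb was taken, from 10 to 230 genes. Across the 78 genes, the difference of the gene and of its neighbours had r = 0.63 and rho = 0.64, as a description, in which nearby subunit genes share neighbours and all values share the same 4 libraries. The sign was the same for 57 of the 78 genes and for 47 of the 58 called, beside 60.8% of 14503 tested genes set against their own neighbours and 62.5% of those called. Over all these genes r was 0.18 and rho 0.26, and the difference from the subunit genes was not tested. NDUFA13 (-1.77 on the log2 CPM scale) lay among neighbours at -0.96, ATP5F1E (1.23) among neighbours at 0.82, and NDUFS6 (1.29) among neighbours at 0.54. NDUFB9 (1.10), named after its values were seen, lay among neighbours at 1.41, the highest of all. By whole chromosome, the median of the subunit genes had the sign of the median of the other genes on 17 of 22 chromosomes. On chromosome 19, the 9 subunit genes had a median of -0.23 and the 1007 other genes -0.36, and on chromosome 11, 7 subunit genes had 0.45 and 835 others 0.44. On chromosome 12, 6 subunit genes had 0.64 and the others 0.04, and on chromosome 14, 2 had 0.02 and the others -0.42. Some genes went against their surroundings, such as UQCR10 (0.74, neighbours -0.54) and COX6B2 (-1.38, neighbours 0.23), and SDHA (1.26) and NDUFA4L2 (1.37) lay far above neighbours at 0.20 and 0.03.

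**Figure D4:**
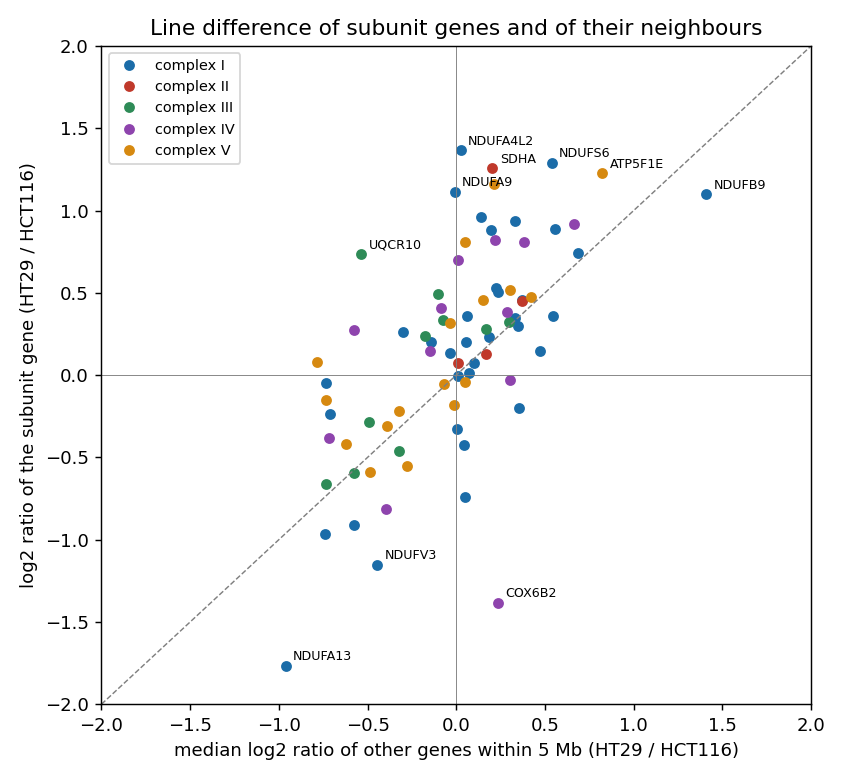
Log2 ratio of HT29 to HCT116 of each of the 78 tested subunit genes against the median ratio of the other tested genes within 5 Mb, coloured by complex, with the dashed line marking equality. Points rise along the line (r = 0.63), and UQCR10 and COX6B2 lie in the quadrants of opposite sign.

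Genes that assemble or regulate the complexes were taken from lists. Of 61 tested assembly genes, the shared edgeR test called 0 for LPS, with 0 higher and 3 lower at an unadjusted p under 0.05, and the line test called 29 higher in HT29 and 15 lower. That is 72.1% of them, beside 76.6% of all genes, and the shares of calls in the single lists below were not tested against it. In HT29, 41 of 60 measured assembly genes were below the control, with a median log2 ratio of -0.05, and 15 had intervals below 0 and 2 above, beside 18.5% and 15.9% of all genes. In HCT116, 44 of 62 were below, with a median of -0.05, and 15 had intervals below 0 and 5 above, beside 18.2% and 17.0%. The list of complex I holds 18 genes, of which 11 were higher in HT29 and 2 lower by the line test. Among the 11 is NDUFAB1 (0.63), named as a subunit but outside the rule used here, since no digit follows NDUFA. NDUFAF2, an assembly factor of complex I, was the highest at 1.23 (548 and 520 counts against 279 and 243), and NDUFAF8 was the lowest of those called at -0.33. Of 4 genes for complex II, 2 were higher in HT29 and 0 lower, led by SDHAF1 at 1.05.

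Of 9 genes for complex III, 6 were higher in HT29 and 1 lower, from UQCC5 at 1.40 to TTC19 at -1.35 (553 and 601 counts against 1833 and 1540). Of 25 tested genes for complex IV, 9 were higher and 9 lower, from the copper chaperone COX17 at 1.62 (818 and 849 counts against 328 and 292) to the copper protein SCO2 at -2.87 (5 and 7 counts against 69 and 37). Of 5 genes for complex V, 1 was higher and 3 lower, from the inhibitor ATP5IF1 at 0.52 to ATPAF2 at -1.67 (133 and 165 counts against 568 and 516). A list of electron carriers and of enzymes that pass electrons on held CYCS, DHODH, ETFA, ETFB, ETFDH, GPD2 and SQOR. Of these 7 genes, 4 were higher and 2 lower, from ETFA at 1.18 to ETFDH, the oxidoreductase that takes its electrons, at -0.81. Each of these calls was made by edgeR over all 14516 genes.

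Of 15 tested regulators, 5 were higher in HT29 and 5 lower, and the shared test called 0, with 0 under an unadjusted p of 0.05. GABPB1, a subunit of GABP, was higher in HT29 at 1.20 (703 and 684 counts against 370 and 320), and POLRMT, the mitochondrial RNA polymerase, was the lowest of those called at -1.43 (1959 and 2231 counts against 6870 and 6032). NRF1 had 431, 489, 520 and 446 counts, and its log2 ratio with LPS was 0.04 (-0.15 to 0.23) in HT29 and -0.09 (-0.28 to 0.09) in HCT116. GABPA had 519, 547, 953 and 763 counts, with -0.06 (-0.24 to 0.11) and -0.19 (-0.33 to -0.05). TFAM, which packs mitochondrial DNA and helps to start its transcription, had 2112, 2285, 1381 and 1061 counts, with -0.03 (-0.11 to 0.06) and -0.25 (-0.37 to -0.14). The coactivator PPARGC1A had 9, 4, 0 and 0 counts. YY1 had 4056, 4088, 4668 and 4056 counts. Its log2 ratio with LPS was -0.13 (-0.19 to -0.06) in HT29 and -0.07 (-0.14 to -0.01) in HCT116. Of the 15 regulators measured in HT29, 5 had intervals below 0 and 3 above, beside 18.5% and 15.9% of all genes. In HCT116 it was 5 and 1 of 15, beside 18.2% and 17.0%. NRF1, GABPA, YY1, TFAM and PPARGC1A were named after their values were seen.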

How the data were processed

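RNA of HT29 and HCT116 cells, 1 control and 1 LPS library each, was sequenced as paired reads. The authors deposited raw counts per gene, after trimming (cutadapt 1.9 and Trimmomatic 0.39 in the submitters' processing notes), alignment to hg38 with HISAT2 2.1.0 and counting with featureCounts 2.0.1. For strand, overlapping genes and multiple alignments the counting options were not given in the sources used here, nor was the annotation release. Total counts ran from 19105058 to 21268959, which limits genes with few counts to wide intervals.

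Counts were normalized by TMM (edgeR 4.0.16, R 4.3.3). Log2 ratios within a line used CPM with a prior count of 2 and 95% Clopper-Pearson intervals, for genes averaging 1 CPM or more there. The shared LPS test and the line test were edgeR quasi-likelihood tests, each with the other factor as a block, over the 14516 genes averaging 1 CPM or more, with Benjamini-Hochberg adjustment at 0.05, and were tested on simulated data. DESeq2 1.42.0 was an alternative. Names, exon overlaps and transcript lengths came from GENCODE 44, and copies from minimap2 2.31. TPM used the length of the canonical transcript. The members and lists were chosen with earlier results of these data known. Genes were named where they had the highest or lowest LPS ratio of their complex in a line, passed 0.58, had the largest called line difference of their complex or list, were isoforms, complex II subunits or under 1 CPM. The values of 1 gene are counted in the totals and not reported here. The replicate numbers of the labels pair no samples, as each group has 1. As the labels call each group 1 sample, p-values do not measure a spread between replicates. The 1 residual degree of freedom in these 4 libraries holds how differently the lines respond to LPS. The spread was estimated with information drawn from all tested genes.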

Additional observations from a re-analysis of the deposited data

Results flagged for a closer look

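The counting intervals of 7 subunit genes excluded 0 in opposite directions in the lines, so that LPS was on opposite sides of the control in HT29 and HCT116, as was so for 4.45% of all genes measured in both lines. Each condition has 1 library per line, and no test of these differences was made. The difference is given as the log2 ratio in HT29 minus that in HCT116. NDUFA1, an accessory subunit of complex I, had 410 and 579 counts in HT29 against 576 and 438 in HCT116, control before LPS, with log2 ratios of 0.36 and -0.27, a difference of 0.62. NDUFA11, an accessory subunit of complex I with 68.2% of its exon bases shared, had 268 and 233 counts in HT29 against 548 and 572 in HCT116, control before LPS, with log2 ratios of -0.34 and 0.19, a difference of -0.53. NDUFB1, a short accessory subunit of complex I, had 224 and 299 counts in HT29 against 283 and 214 in HCT116, control before LPS, with log2 ratios of 0.28 and -0.27, a difference of 0.55. NDUFS3, a core subunit of complex I, had 1590 and 1577 counts in HT29 against 1400 and 1447 in HCT116, control before LPS, with log2 ratios of -0.15 and 0.18, a difference of -0.33. UQCR10, a small subunit of complex III, had 827 and 805 counts in HT29 against 550 and 568 in HCT116, control before LPS, with log2 ratios of -0.18 and 0.17, a difference of -0.35. COX6A1, a subunit of complex IV with a near-identical copy, had 1173 and 1083 counts in HT29 against 955 and 985 in HCT116, control before LPS, with log2 ratios of -0.25 and 0.17, a difference of -0.43. ATP5MC1, a gene for subunit c of complex V, had 1550 and 1577 counts in HT29 against 2198 and 2233 in HCT116, control before LPS, with log2 ratios of -0.11 and 0.15, a difference of -0.26.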

How the results depend on the processing

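The negative medians with LPS kept their sign under every alternative run. In HT29 the median of -0.12 was -0.11 both with library size alone and with trends in length and GC content removed, and the other alternatives stayed within the counting error of the pooled counts. In HCT116 the median of -0.03 was -0.057 with library size alone (all genes -0.028), -0.043 when ribosomal protein, histone and mitochondrial genes were left out of the scaling (all genes -0.013), -0.066 with the trends removed (all genes -0.016), and -0.062 over genes with under 10% of exon bases shared, an alternative chosen after seeing the data. The counts of intervals below 0 stayed within 1.5 times of 39 and 29, and the shared test called 0 subunit genes under every alternative. The line test called 53 to 58 genes under the other tools, filters and size factors, without the block and without genes that have a copy. Fewer genes had under 10% shared, with 54 measured in each line. Of these the line test called 38, 24 of them higher in HT29, beside 76.6% of all tested genes called in either direction. The median line difference of 0.23 was 0.196 in the control libraries, 0.200 in the LPS libraries, 0.082 with library size alone (all genes -0.167), 0.090 with trends removed (all genes 0.199) and 0.175 over genes with under 10% shared. The line calls of NDUFB5, NDUFA5, NDUFB7, ATP5F1B and ATP5F1D were lost under at least 1 alternative. The median level in the HT29 control was 116 TPM, and 82.8 TPM with the length of all exons joined. No paired analysis was possible because each group has 1 sample, so that the groups share fewer than 2 replicate numbers, and the blocks of both tests are the line and LPS. For the same reason no replicate could be left out.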
